A study of Homo sapiens with 24 samples.

Results

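The long noncoding RNAs (lncRNAs) described here had, in untreated fibroblasts, a higher level in the untranslated pool than in the high polysome pool. The low polysome pool took no part in the choice. They were chosen on 3 untranslated-pool and 3 high-polysome-pool arrays of control cells, in the deposited normalized table. A lncRNA probe was a member if it was well above background on all 3 control untranslated arrays and its mean log2 value there was at least 2 above its mean in the control high pool. This held for 1875 probes of 1118 transcripts, of 44002 lncRNA probes of 22007 transcripts on the array. Of the 5919 probes well above background on all 3 control untranslated arrays, 31.7% were members, whereas 210 probes of 129 transcripts lay at -2 or below, toward the high pool. The values of the control untranslated and high pools chose the members, so they are given as a description and are not tested.

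The cells were MRC5, an established line of human fetal lung fibroblasts, either untreated (control) or exposed to 0.2 mM H2O2 for 2 hours (oxidative stress, OS). Cycloheximide, which holds ribosomes on RNA, was added to both before harvest, and lysates were separated on sucrose gradients. Fractions 1 to 9 were pooled as untranslated (free ribonucleoproteins and single ribosomes), fractions 10 to 14 as low (2 to 4 ribosomes) and fractions 15 to 23 as high (5 ribosomes or more). The 3 pools and total RNA in both conditions give 8 groups of 3 arrays each. Each array received 100 ng of RNA, copied from poly(A) tails and labelled with Cy3. A level is therefore a concentration within the polyadenylated RNA of that pool, not a share of the transcript among pools, and a change in a pool can come from the transcript or from the rest of the RNA there. In bulk samples, fewer cells of a type and less RNA per cell cannot be told apart. Among the fibroblast markers with a catalog probe, COL1A1, COL3A1 and THY1 were well above background on all 24 arrays, while the epithelial EPCAM was above it on no control total RNA array. The endothelial CDH5 and 1 of 3 probes of the leukocyte PTPRC were also above it on the 3 control total RNA arrays.

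Cytoplasmic RNA that carries no ribosome, or a single one, stays near the top of a sucrose gradient, and RNA being translated by several ribosomes sinks further. Many lncRNAs are nuclear, others are cytoplasmic, and some spliced ones bind ribosomes on short open reading frames although they make no known protein. The host genes of small nucleolar RNAs (snoRNAs) are a well known example. Their introns hold the snoRNAs, and their spliced exons form short-lived RNAs that reach the cytoplasm and are removed there by a decay pathway tied to translation. During oxidative stress cells repress the initiation of most translation, and many RNAs leave polysomes.

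The sequences below are from some of the members whose 60 bases are identical to those of a catalog probe with a gene name and position. They are shown because these named members carry the comparisons that follow. Each line gives the first 30 bases of a probe, 5′ to 3′ in the sense of the RNA.
TP53TG1: ttcctgcatgatgctggggagcttggcgcc
GAS5: gcctgatggagtctcatggcacaagaagat
SNHG9 (ENST00000564014.1): gaccgcggggttgggggaacttggctgtcc
ZFAS1: ccacttcaagaatgtcattgttagactttg
TTC28-AS1: catctgtggattgttctgtcacttattttc

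In GRCh37, as the array files give it, the TP53TG1 stretch lies at chr7:86974672-86974701 on the minus strand and the GAS5 stretch at chr1:173833079-173833108 on the minus strand. The SNHG9 stretch lies at chr16:2015445-2015474, the ZFAS1 stretch at chr20:47905716-47905745 and the TTC28-AS1 stretch at chr22:28320884-28320913, all on the plus strand. TP53TG1 is a noncoding RNA known as a target of p53. GAS5, SNHG9 and ZFAS1 are snoRNA host genes, and TTC28-AS1 is named for its position antisense to TTC28. A member not shown, ENST00000294715.2, has the 60 bases of a catalog probe for the LSP1 mRNA. Transcript identifiers link further members to catalog probes for the KCP and TRMT5 mRNAs. All custom probes are called lncRNA probes here, whatever gene they read.

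The members were not 1875 independent measurements. Both probes were members for 757 transcripts and a single probe for 361. Of the second probes of those 361, 208 were not well above background on all control untranslated arrays. The other 153 were, with a median control difference of 1.82, and 141 of these 153 differed by 1 or more. The 2 probes of a transcript often read nearly the same stretch, since in 672 of the 757 pairs (88.8%) they overlapped by 15 bases or more. In addition, 630 member probes share their 60 bases with another lncRNA probe, usually on an isoform. Linking transcripts with identical probe sequences gives 892 sequence groups, 756 of them with 1 transcript and the largest with 10. Counts are therefore given as probes, transcripts and sequence groups. The scanner software marked 14 members as outliers on some array, which left 1861 for analysis.

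The control difference that chose the members ran from 2.00 to 7.11 with a median of 2.65, and it was 3 or more for 624 members, 4 or more for 102 and 5 or more for 25. The 3 members just inside the threshold (ENST00000444476.1, ENST00000592377.1 and ENST00000500148.2) and the 3 probes just outside it (ENST00000501652.1, ENST00000590421.1 and ENST00000563603.1) all rounded to 2.00. The members had the same median GC content as all lncRNA probes (41.7%), against 43.3% for the other probes well above background in the control untranslated pool. The letters AATAAA, those of the common poly(A) signal, were searched on the probe strand as printed. They occurred in 329 member probes (17.5%), in 11.6% of the other probes well above background in the control untranslated pool and in 9.83% of all lncRNA probes. Such a match is a string of letters and not a mapped site.

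All levels below are log2 signals after quantile normalization of lncRNA probes among themselves (the lncRNA scale), on which the bulk of lncRNAs is level across arrays. On this scale the member medians were 9.71 to 9.72 on the control untranslated arrays and 9.69 to 9.76 on the OS untranslated arrays. They were 7.98 to 8.06 on the control high arrays and 8.12 to 8.20 on the OS high arrays. In total RNA they were 8.63 to 8.72 in control and 8.88 to 8.89 in OS cells. In the low pool they were 8.69 to 8.78 in control, and 8.93, 9.01 and 7.29 on the 3 OS arrays. The last of these, OS low 3, stands apart from every other array. On it 93.3% of all lncRNA probes were well above background, against 14.5% to 36.3% on the others. The SD of its log2 difference from either other OS low array was 1.68, against 0.272 to 0.513 for all other pairs of arrays in a group. It also adds to the spread of the fit over all arrays, and counts and calls of named probes that turn on it are given with and without it.

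**Figure D1:**
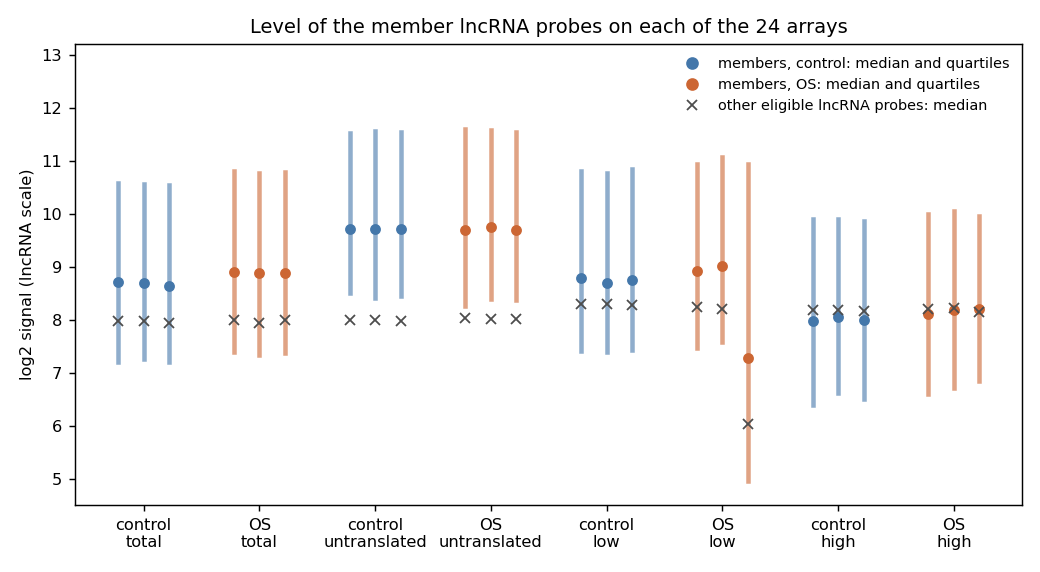
Median (point) and quartiles (line) of the log2 signal of the member probes on each of the 24 arrays, control in blue and OS in orange, with the median of the other lncRNA probes well above background in the control untranslated pool as a cross. The members are highest in the untranslated pool of both conditions, between 9.69 and 9.76, and lowest in the high pool except for OS low 3, at 7.29.

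The first question was whether these lncRNAs still had a lower level in the high than in the untranslated pool after OS. The OS arrays took no part in choosing them. Of the 1622 members well above background on all arrays of both OS pools, 1323 (81.6%) were lower in the OS high pool than in the OS untranslated pool at a limma adjusted p under 0.05. These were 814 transcripts in 647 sequence groups. Among all 6122 lncRNA probes measured in both pools, 29.9% were called lower and 19.7% higher. A single member was called higher. The member median was -1.48, against -0.31 over those 6122 probes. Without OS low 3, 1521 of the 1622 were called lower, beside 43.8% of the 6122, with 26.9% of these higher.

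A further 178 members were well above background on all arrays of the OS untranslated pool but not of the high pool, so a difference in that direction was built in. With them and 5 that passed through the high pool alone, 1473 of 1805 tested members were lower (915 transcripts, 738 sequence groups), against 23.7% of 9425 lncRNA probes tested, with 26.8% of these higher. The other 56 members were not tested. On 1763 of the 1861 members all 3 OS untranslated arrays lay above all 3 OS high arrays, and on 2 the reverse held. The 1861 include members dim in the OS high pool, where this order is partly built in. Among the 1457 well above background in both pools of both conditions, the numbers were 1384 and 2. In control cells, where the rule chose them, the numbers over all 1861 were 1810 and 0. The share over all lncRNA probes was not computed, so these counts are only a description.

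The size of the difference depends on the scale. The median over tested members was -1.52 on the lncRNA scale, -2.45 in the deposited table and -1.92 after scaling each array to its 75th percentile. The median over all tested lncRNA probes moved with it, from 0.04 to -0.56 and -0.29, and the member median minus that median was -1.57, -1.89 and -1.64. Probes with the same 60 bases in both categories show this directly. For 19 member probes with such a twin among the catalog probes, the median OS difference was -1.20 on the lncRNA scale and -3.01 on the scale of the mRNA probes.

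The members that differed more in control cells also differed more in OS cells. The control differences that divide the members here are those of the rule, in the deposited table. The OS differences are on the lncRNA scale, so the sizes cannot be compared. For the 1457 members well above background in both pools of both conditions, lncRNA-scale medians were -1.57 in control and -1.49 in OS. For members measured in both OS pools, the median OS difference was -1.09 at control differences of 2 to 2.5, with 440 of 673 called. It was -1.43 for 2.5 to 3, with 363 of 408 called, and -1.92 for 3 to 4, with 434 (95.8%) called. At 4 and above it was -3.02, with 87 of 88 called. Over all 1861 members high minus untranslated, on the lncRNA scale in both conditions, had a Pearson correlation of 0.72 between control and OS cells. This is a description over probes that share arrays and partly share sequences. The 76 tested transcripts whose 2 probes do not overlap had OS differences correlated at 0.85. In 70 of them at least 1 probe was called, and both probes had the same sign in 69 and were both called in 58.

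**Figure D2:**
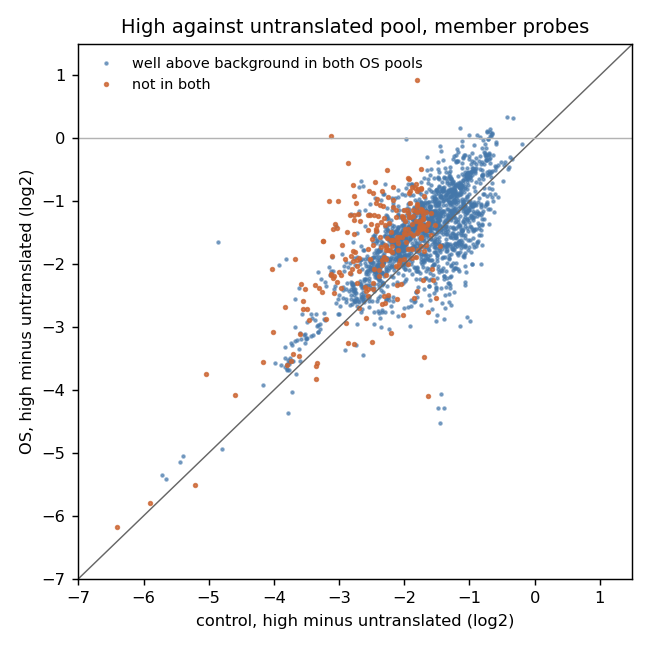
High minus untranslated pool (log2) in control cells (x axis) and OS cells (y axis) for 1861 member probes, blue where well above background on all arrays of both OS pools and orange otherwise, with the line of equal values. Both axes are on the lncRNA scale, while the control arrays of the x axis chose the members in the deposited table. Nearly all points lie below 0 on the y axis, 1845 of 1861, and the farther left a point is, the lower it tends to be.

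Of the 6 members with the largest control differences (in brackets, from the deposited table), 3 had OS high-pool levels within the background on all arrays. They were tested only because of their OS untranslated levels, so the direction was built in and bounds are given without a test. ENST00000575126.1, with the largest value (7.11), had OS untranslated levels of 10.49, 10.78 and 10.62 and OS high levels of 4.84, 5.20 and 3.30, none well above background. It was at least 39.1-fold higher in the OS untranslated pool, the bound being set by the dimmest signal that is well above background. Its total RNA levels were 7.76, 7.76 and 7.42 in control and 7.57, 7.69 and 7.73 in OS cells, which overlap. ENST00000517965.1 (6.66) had OS untranslated levels of 9.94, 10.53 and 10.19 and was at least 29.5-fold higher there. ENST00000411804.1 (5.93) was at least 19.8-fold higher. The other 3 were well above background on all arrays of both OS pools. ENST00000450016.1 (6.57) had OS levels of 12.25, 12.56 and 12.32 in the untranslated pool and 6.86, 6.90 and 7.12 in the high pool. That is 42.7-fold lower in the high pool (log2 -5.42, SE 0.34, adjusted p = 1.37e-10). ENST00000381796.1 (5.78) was 30.5-fold lower (log2 -4.93, SE 0.41, adjusted p = 7.51e-09). ENST00000443162.1 (6.62) was lower by 5.35 and 5.05 on its 2 probes. These 3 were thus still concentrated outside the high pool in OS cells. The files give these transcripts no gene name.

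The snoRNA host genes among the members were GAS5, SNHG6, SNHG15 and ZFAS1 of a list of 12, and SNHG9, which is not on the list. SNHG6 had OS untranslated levels of 14.27, 14.30 and 14.30 and OS high levels of 11.71, 11.47 and 11.87, a 6.10-fold lower level in the high pool (log2 -2.61, SE 0.13, adjusted p = 7.26e-12). ZFAS1 had 14.95, 14.99 and 15.03 against 13.02, 13.05 and 13.07 (log2 -1.94, SE 0.10, adjusted p = 7.58e-12). SNHG15 had 11.64, 11.57 and 11.75 against 10.19, 10.29 and 10.23 (log2 -1.42, adjusted p = 3.75e-10). The pools did not overlap for any of them. GAS5 had 16.14, 16.24 and 16.28 against 14.99, 14.86 and 15.13 (log2 -1.23, SE 0.11, adjusted p = 2.01e-08), and SNHG9 differed by -1.10 (adjusted p = 6.69e-08). The SNHG9 values are those of ENST00000531523.1, named by its transcript identifier, and the printed stretch of ENST00000564014.1 differed by -1.26 (adjusted p = 1.25e-07). On the scale of the mRNA probes the identical GAS5 probe differed by -3.01. By the symbol in the array design, catalog probes cover 7 of the 12 genes on the list, and 6 genes could be tested with 7 probes. Catalog probes under older symbols are left out of these counts, among them ZNFX1-AS1 (ZFAS1) and C7orf40 (SNHG15). The ZNFX1-AS1 probe differed by -3.82 on the scale of the mRNA probes. All 7 probes, those of GAS5, SNHG1, SNHG3, SNHG6, SNHG7 and SNHG12, were called lower in the OS high pool. Their estimates ran from -4.38 (SNHG6) to -1.76 (SNHG7) on the mRNA scale, where 28.1% of 10189 tested mRNA probes were called lower. The SNHG7 probe at -3.08 was well above background on 3 OS untranslated arrays but on only 1 OS high array. The direction of that probe was therefore built in.

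Other members with a gene name lay the same way. TP53TG1 was lower in the OS high pool by 2.58 (log2 -2.58, SE 0.14, adjusted p = 2.69e-11) and ZNF667-AS1 differed by -2.21 (adjusted p = 2.88e-10). SVIL-AS1, an antisense RNA of the supervillin gene, differed by -1.73 (adjusted p = 1.86e-09). LINC00324 and EOLA1-DT were tested only through the OS untranslated pool, so they are given without a test. LINC00324, well above background on 2 of 3 OS high arrays, differed by -2.69, and EOLA1-DT, on none, was at least 7.01-fold higher in the OS untranslated pool. For TTC28-AS1 the estimate was -1.20 and did not pass the test (adjusted p = 0.152). Without OS low 3 it was -1.23 and passed (adjusted p = 0.000708). USP30-AS1 was not tested in this comparison, being above background on all arrays of neither pool. Of the named chromatin and nuclear lncRNAs on the other list, none was a named member. Many members carry no gene name, so this does not show that these RNAs lack the pattern. In the OS pools, 5 catalog probes of 3 genes on that list were tested on the mRNA scale. OIP5-AS1 was called lower (-3.72, adjusted p = 2.50e-07), beside 28.1% of mRNA probes. MEG3 was called lower at -1.97 and -1.56 and not at -1.21 (adjusted p = 0.112). TUG1 was called higher (1.22, adjusted p = 2.73e-08).

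The single member called higher in the OS high pool was ENST00000448958.1, with a control difference of 2.01 on the deposited scale. Its OS untranslated levels were 14.73, 14.64 and 14.67 and its OS high levels 14.83, 15.28 and 14.90, and its estimate was 0.32 (SE 0.13, adjusted p = 0.0415). The sign rests on the scale, since the difference was -1.34 in the deposited table and -1.35 after scaling to the 75th percentile.

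**Figure D3:**
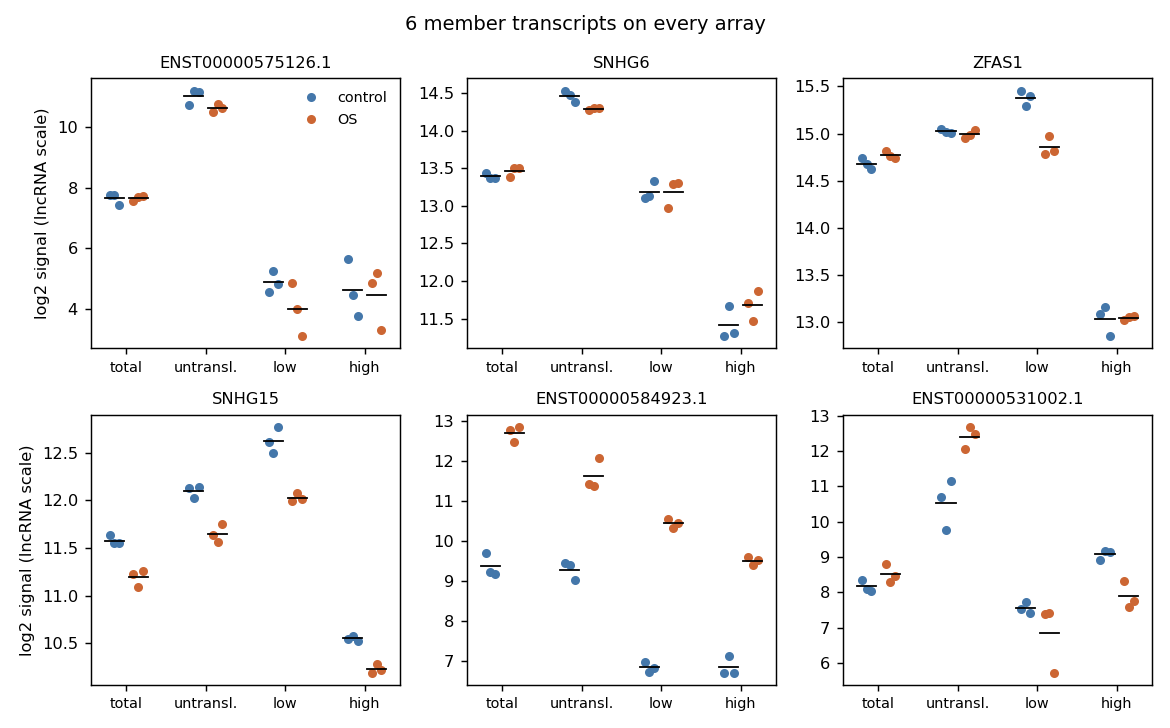
Log2 signal on the lncRNA scale of 6 members on every array (points, control in blue, OS in orange) with the mean of each group of 3 as a bar, for total RNA and the pools. SNHG6, ZFAS1 and SNHG15 are lowest in the high pool in both conditions, ENST00000584923.1 is higher in OS in every column, and ENST00000531002.1 is higher in OS in the untranslated and lower in the high pool.

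The next question was whether the members changed in whole cells. In total RNA 1840 members could be tested, and 78 (51 transcripts, 36 sequence groups) were higher and 9 (6 transcripts, 4 groups) lower in OS cells. Of all 11736 lncRNA probes tested, 6.18% were higher and 3.45% lower. Among probes well above background in both groups the numbers were 76 and 9 of 1737 members (4.38% and 0.518%), beside 2.54% and 2.93% of 8868 lncRNA probes. At an unadjusted p under 0.05, 220 members were higher and 33 lower. The share of all lncRNA probes at that threshold was not computed, so these counts are only a description. The member median was 0.13 against -0.04 for all tested lncRNA probes, and the estimate was above 0 for 1301 members and below 0 for 538. Without OS low 3 in the fit 201 members were higher and 38 lower, with 11.1% and 7.99% of the background.

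The largest called rise belonged to 1 sequence group of 5 transcripts, ENST00000577988.1, ENST00000571722.2, ENST00000573866.2, ENST00000584923.1 and ENST00000580533.1, whose 10 probes hold 2 different 60-mers. The median of these probes was 9.67, 9.21 and 9.22 in control total RNA and 12.71, 12.45 and 12.78 in OS total RNA. No OS array came near a control array. Their estimates were 3.24 to 3.33, a rise of 9.43 to 10.0-fold, with a highest adjusted p of 3.78e-08. In the low pool the medians went from 7.25, 6.96 and 6.84 to 10.61, 10.26 and 10.29, and the estimates of 2.83 to 3.60 are a rise of 7.10 to 12.1-fold (highest adjusted p = 1.22e-06). In the untranslated pool, given as a description, the control medians were 9.52, 9.40 and 9.19 and the OS medians 11.47, 11.41 and 12.03. In the high pool they were 7.30, 7.19 and 6.73 in control and 9.69, 9.37 and 9.48 in OS. The group thus stood higher in every pool after OS, and within OS cells it was still 4.03 to 4.47-fold lower in the high than in the untranslated pool (highest adjusted p = 1.60e-06).

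The other members higher in total RNA had smaller changes or were dimmer in control cells. ENST00000573382.1 was not well above background on any control total RNA array and was tested only through OS, where it was at least 1.55-fold higher. ENST00000445730.1 rose by 2.18 (SE 0.52, adjusted p = 0.0109). ENST00000563192.1, a member with a control pool difference of 4.96, rose by 1.34 and 1.36 on its 2 probes in total RNA and by 1.94 and 1.95 in the low pool (adjusted p of at most 6.11e-05 and 2.41e-06). ENST00000599274.1 rose by 1.36 and 1.34, and ENST00000438158.1 by 1.67 and 1.70. The 3 transcripts that share probe sequence with ENST00000554169.1 rose by 0.86 to 1.00 on 6 probes. LINC01089, picked after its values were seen, rose by 1.25 (SE 0.12, adjusted p = 1.34e-06) and by 1.40 in the low pool.

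THUMPD3-AS1, named as antisense to THUMPD3, had total RNA levels of 10.41, 10.37 and 10.37 in control and 10.94, 10.93 and 10.81 in OS cells, with no overlap. The estimate was 0.51 (SE 0.12, adjusted p = 0.00852), and 0.53 on the other probe. It differed by -1.23 between the OS high and untranslated pools (adjusted p = 2.87e-08).

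Of the 78 members higher in total RNA, 67 were also called lower in the OS high pool than in the OS untranslated pool, of 77 measured in both. Beside this, 81.6% of all members and 29.9% of all lncRNA probes measured in both pools were called lower. Their medians of OS minus control, which the control pools enter, were 0.43 in the untranslated pool with 64 of 78 above 0, 0.96 in the low pool (OS arrays 1 and 2) with 75 above 0, and 1.01 in the high pool with 77 above 0. For the 9 members lower in total RNA these medians were -0.47, -0.39 and -0.32.

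The 9 probes lower in total RNA were few and mostly of small size. SNHG15 had 11.64, 11.55 and 11.55 in control and 11.23, 11.09 and 11.26 in OS total RNA, with no overlap, and fell by 0.39 (log2 -0.39, SE 0.10, adjusted p = 0.0196; -0.38 on the other probe, adjusted p = 0.0313). The 3 transcripts that share probe sequence with ENST00000577700.1 had 5 probes between -0.42 and -0.38. For ENST00000484836.1 1 probe was lower (-1.33, adjusted p = 0.0239) and the other was not called (-1.19, adjusted p = 0.0971) but was without OS low 3 (-1.22, adjusted p = 0.000917). ENST00000422207.1 was at 9.49, 9.45 and 9.70 in control and 8.01, 7.86 and 7.93 in OS total RNA on 1 probe (-1.61, adjusted p = 0.00494), while its other probe had an estimate of 0.17 (adjusted p = 0.632), so its 2 probes disagree. In total RNA the other snoRNA hosts among the members had smaller estimates. SNHG6 was at 13.44, 13.37 and 13.37 in control and 13.39, 13.51 and 13.50 in OS cells (0.07, adjusted p = 0.953). The estimate was 0.09 for ZFAS1 (adjusted p = 0.825), 0.11 for GAS5 (adjusted p = 0.811) and 0.28 for SNHG9 (adjusted p = 0.167), none of which passed the test. Of the 7 catalog probes of listed hosts found by symbol, those of SNHG1 (0.49, adjusted p = 0.0362) and SNHG7 (0.62, adjusted p = 0.00693) were higher, beside 3.07% of 10630 tested mRNA probes.

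In the low pool, 97 of 1820 tested members (57 transcripts, 38 sequence groups) were higher and 28 (20 transcripts, 11 groups) lower in OS cells. Of the 12509 lncRNA probes tested there, 2.82% were higher and 2.98% lower. At an unadjusted p under 0.05, 165 were higher and 312 lower, with no share over all lncRNA probes computed at that threshold. Among probes well above background in both groups the numbers were 96 and 28 of 1787 members, beside 2.04% and 3.44% of 10087. The direction of the bulk rests on OS low 3. With it the member median was -0.35 and that of all tested lncRNA probes -0.58, and without it these were 0.05 and -0.05. Without it 153 members were higher and 30 lower, beside 5.87% and 2.75% of 12602 probes. The members higher in the low pool with the largest estimates were those of the 5-transcript group already given, followed by ENST00000418273.1 at 2.11 (adjusted p = 0.00163).

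The snoRNA hosts did not move one way in the low pool. ZFAS1 was at 15.45, 15.29 and 15.40 in control and 14.78, 14.97 and 14.82 in the OS low pool, with no overlap, a 1.44-fold fall (log2 -0.52, SE 0.11, adjusted p = 0.00432; -0.67 on the other probe). SNHG15 fell from 12.62, 12.50 and 12.77 to 11.99, 12.07 and 12.02 (log2 -0.60, adjusted p = 0.00127; -0.67 on the other probe). SNHG9 rose from 14.50, 14.35 and 14.52 to 14.91, 15.00 and 15.19 (log2 0.58, SE 0.12, adjusted p = 0.00419). That direction turned to -0.73 when arrays were scaled to their 75th percentile with OS low 3 kept, and did not reverse under that scaling without OS low 3. For SNHG6 the estimate was -0.00 (adjusted p = 0.989) and for GAS5 -0.18 (adjusted p = 0.27). THUMPD3-AS1 had an estimate of 0.43 (adjusted p = 0.0345), and its other probe did not pass. The estimate became -0.59 under the same scaling with OS low 3 kept and did not reverse without that array. Without OS low 3 the adjusted p of the ZFAS1 probes was 0.00326 and 0.00749.

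Larger falls in the low pool were seen for ENST00000447139.1 and ENST00000590721.1. ENST00000447139.1 had 10.34, 10.00 and 10.32 in control and 9.12, 9.31 and 6.07 in the OS low pool, the last on OS low 3. Its estimate was -2.05 with that array (adjusted p = 0.0186) and -1.03 without it (adjusted p = 9.66e-05). In total RNA its estimate was -0.86, not called over all arrays (adjusted p = 0.463) and called without OS low 3 (-0.89, adjusted p = 5.76e-05). ENST00000590721.1 was at -0.89 (adjusted p = 0.0425), and without OS low 3 the call was lost (adjusted p = 0.124). A group of 7 transcripts linked to ENST00000449289.1 had 9 probes called lower, between -0.44 and -0.37, and 1 of them lost the call without OS low 3 (adjusted p = 0.0545).

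The members divided by where they stood in the low pool, which the rule did not use. In control cells 1392 of 1861 members had a lower mean in the low than in the untranslated pool, 688 of them by 1 or more, and all others had a higher mean in the low pool. Of these others, 440 again had a higher mean in the low pool in OS cells (OS low 1 and 2), and none lay 1 or more below. Of the 688, 632 again lay 1 or more below and 1 lay above. Over all members the low-minus-untranslated differences in control and OS cells correlated at 0.96, as a description over 1861 probes that share arrays. In OS cells the low pool lay above the untranslated pool for 699 members.

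Members with the low pool above the untranslated pool in control cells (the first kind) and those with it 1 or more below (the second kind) were both lower in the OS high than in the OS untranslated pool. Of the 424 members of the first kind measured in both, 286 were called lower with a median of -0.91, and of the 602 of the second kind 533 with a median of -1.91. Of all lncRNA probes measured in both, 29.9% were called lower. Their probes also differed in letters. The median GC content was 38.3% in the first and 45.0% in the second kind, and AATAAA occurred in 20.3% and 14.2%. The part of probe composition in the levels was not tested. In total RNA 24 of the first kind were higher and 7 lower after OS, and 26 and 2 of 671 tested in the second kind. In the low pool 42 of the first kind were higher and 14 lower, and 25 and 0 of 647 tested in the second kind. Because the control low arrays both defined the kinds and enter this comparison, these low-pool counts are only a description. They do not show that the kinds differ in their low-pool change, and the part of that choice in them was not tested. ZFAS1 and SNHG15 belong to the first kind, although the ZFAS1 levels of the OS low and OS untranslated arrays overlap, and SNHG6 and ENST00000575126.1 to the second.

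**Figure D4:**
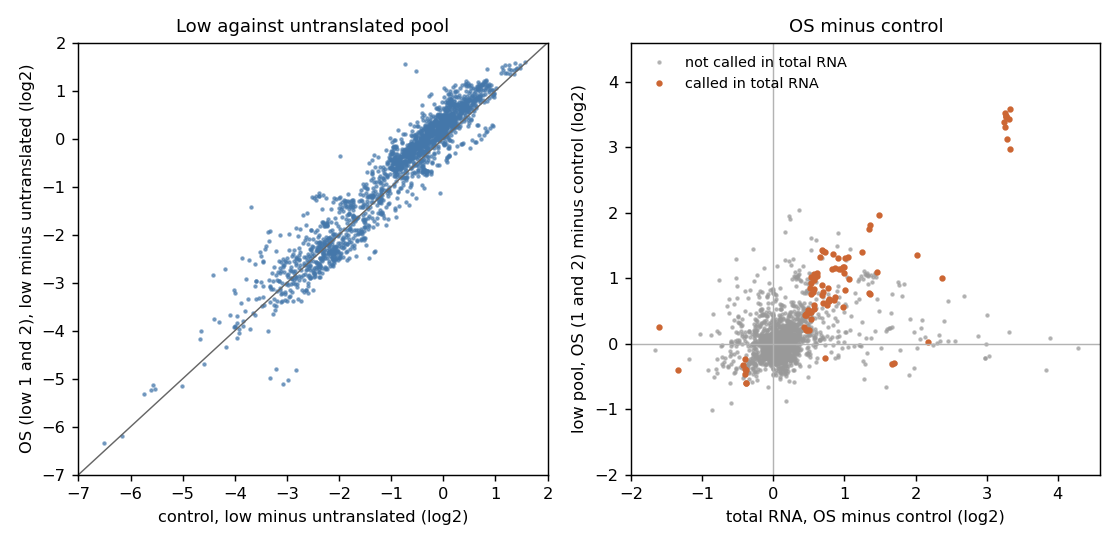
Left, log2 difference between the low and the untranslated pool in control (x axis) and OS cells (y axis, arrays OS low 1 and 2) for 1861 members, with the line of equal values. Right, OS minus control in total RNA (x axis) and in the low pool (y axis, OS low 1 and 2), orange where called in total RNA. The left panel follows the line (correlation 0.96), and in the right panel 75 of the 78 members higher in total RNA are also above 0 in the low pool.

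The change of the untranslated and high pools from control to OS shares the control arrays with the rule and is described without a test. Over the 1457 members well above background in all 4 of these groups, the median of OS minus control was -0.10 in the untranslated pool and 0.07 in the high pool, against 0.01 and -0.07 for 3539 other lncRNA probes. In the same members it was 0.13 in total RNA, against -0.07. The members were picked for a high control untranslated and a low control high value, and the part of that choice in these differences was not tested.

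Single members stood far from these medians. High minus untranslated fell by 1 or more from control to OS in 28 probes of 24 transcripts, and rose by 1 or more in 14 probes of 12 transcripts. In the 28 the untranslated pool was 0.59 higher and the high pool 0.76 lower in the median. In the 14 the median change was 0.17 in the untranslated and 1.26 in the high pool. ENST00000531002.1 had the largest fall, with -3.07 and -2.90 on its 2 probes. Its untranslated levels were 10.70, 9.77 and 11.14 in control and 12.07, 12.67 and 12.49 in OS cells, and its high-pool levels 8.92, 9.18 and 9.16 in control and 8.33, 7.58 and 7.76 in OS cells. Neither pool overlapped between conditions. In total RNA it was at 8.36, 8.10 and 8.04 in control and 8.81, 8.29 and 8.47 in OS cells, which overlap. Within OS cells, where the test does not use the control pools, it was 23.0-fold lower in the high pool (log2 -4.53, SE 0.38, adjusted p = 6.32e-09).

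ENST00000556291.1 moved in the same way by -2.80 and -2.62, and CCNT2-AS1, named as antisense to the cyclin T2 gene, by -1.92 on 1 probe. In the other direction ENST00000563192.1 moved by 1.12 and 1.24. It was higher in total RNA and in the low pool as given above, and in the high pool by 2.03 and 2.00. Within OS cells it was still 2.56 and 2.38 lower in the high than in the untranslated pool on the log2 scale (-2.56 and -2.38, adjusted p of at most 1.71e-09).

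Some members lie at gene starts, where antisense RNAs that begin at promoters are found. The deposited files give lncRNA probes no position, so probe sequences were matched to windows of 250 bases before to 50 after the starts of RefSeq genes (GRCh38.p14). Of the members 21 (1.12%) matched such a window, 18 of them (0.960%) on the strand opposite to the gene. Of the other probes well above background in the control untranslated pool 1.31% matched, 0.816% on the opposite strand, and of all lncRNA probes 0.798% and 0.480%. The 18 probes belong to 12 transcripts at 10 genes. None was called by limma in total RNA, of 17 tested, or in the low pool, of 18, where 6.18% and 2.82% of lncRNA probes were called higher. In the OS high against the OS untranslated pool, 11 of 17 measured in both were called lower, with a median of -1.50, beside 29.9% of lncRNA probes and 81.6% of members. Without OS low 3, 15 were called lower, and 5 were called higher in total RNA, 4 at THUMPD3 and 1 at REP15.

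Of these, ENST00000517687.1 and ENST00000518331.1 lie upstream of THUMPD3, a gene for a tRNA-modifying protein, on its opposite strand. Their 4 probes begin within 5 bases of each other. The first 30 bases of each follow, with the 25 bases that all 4 share in capitals, on the minus strand of GRCh38.p14 at chr3:9362877-9362906, chr3:9362876-9362905, chr3:9362873-9362902 and chr3:9362872-9362901.
ENST00000517687.1 first probe: aggggCCTTGTGTCCTACCATGGTATTTGC
ENST00000517687.1 second probe: ggggCCTTGTGTCCTACCATGGTATTTGCt
ENST00000518331.1 first probe: gCCTTGTGTCCTACCATGGTATTTGCtaac
ENST00000518331.1 second probe: CCTTGTGTCCTACCATGGTATTTGCtaacg

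In total RNA their estimates were 1.60, 1.46, 1.25 and 1.66, with SE of 0.50 to 0.76, and none passed the test (adjusted p of 0.0631, 0.151, 0.35 and 0.257). In the OS high against the OS untranslated pool the estimates were -1.44 (adjusted p = 0.02), -2.33 (adjusted p = 0.00159), -1.50 (adjusted p = 0.0537) and -1.31 (adjusted p = 0.144). Over all arrays only the probes of ENST00000517687.1 were thus called. Without OS low 3 all 4 were higher in total RNA, by 1.28 to 1.71 (highest adjusted p = 0.0129), and lower in the OS high pool, between -2.39 and -1.35 (highest adjusted p = 0.00352). At CORO1A, which encodes an actin-binding protein, 4 probes of ENST00000568506.1 and ENST00000566144.1 on the same opposite side differed by -2.23 to -1.67, all called, while their total RNA estimates were 0.09 to 0.19.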

How the data were processed

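The authors scanned the 24 single-color arrays with Feature Extraction 10.7.3.1 and deposited each spot's intensity (the processed signal, from which the software subtracts background) and used Partek for normalization, per the labels and the study's methods. They also deposited a table of log2 values, which differed by at most 0.00145 from quantile normalization of the processed signal over all probes together. The rule for members was applied to that table. Members, gene lists and comparisons were chosen with earlier results of these data known.

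For all other values, control spots and 178 probes with an outlier mark were left out, and log2 processed signals were quantile-normalized within each category (43911 lncRNA and 17448 mRNA probes), as the study's methods describe. Linear models with 8 groups (limma 3.58.1, R 4.3.3) covered all probes, and p-values were Benjamini-Hochberg adjusted over the tested lncRNA and mRNA probes. Testing required signals well above background throughout 1 or both groups of a comparison, and calls required an adjusted p under 0.05. The 3 arrays per group limit the precision. The steps were tested on simulated data. The study's methods mention removed replicates without naming them, and all arrays were kept. The samples are described as independent RNA preparations. Control untranslated 1 and 2 share a label number, but the SD of their difference (0.513) was the largest outside OS low 3, so they were kept as 2 replicates. The labels do not say whether equal replicate numbers mark 1 preparation, so the models had no replicate block.

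Named members were the 6 with the largest rule value and, per comparison, the 4 highest and 4 lowest called estimates measured in both groups. The 3 largest bounds, the 12 with the largest rule value among those named through catalog probes, members of fixed lists and the probes at the threshold were added, and the second member probe of each transcript. Members with the largest shift between conditions, promoter matches, the members ENST00000573382.1, ENST00000445730.1, ENST00000438158.1, ENST00000599274.1, ENST00000554169.1, ENST00000418273.1, ENST00000563192.1, ENST00000449289.1 and LINC01089 were named after their values were seen. Gene names come from catalog probes of the array design with the same sequence or transcript identifier, updated by accession to RefSeq GRCh38.p14. Lower bounds use, per array, the higher of the dimmest signal well above background and the probe's own. Alternatives were other normalizations, filters, blocks, the rule of the methods, other rules for members and leaving out arrays. Scaling and the deposited table without OS low 3 were added after seeing the data.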

Additional observations from a re-analysis of the deposited data

How the results depend on the processing

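The count of members lower in the OS high than in the OS untranslated pool (1473) stayed within 1.5 times under every alternative, with 1697 without OS low 3 and 1316 to 1382 when each array of the compared groups was left out in turn, as in the other ranges here. The counts in total RNA and the low pool did not, and the cause was not tested. The 78 members higher in total RNA became 285 in a fit of only the groups compared, 201 without OS low 3, 118 with the deposited table, 244 with that table without OS low 3, 141 under the rule of the methods and 26 with 75th-percentile scaling, and 53 to 65 leaving out 1 array. The 9 lower became 67, 38, 2, 29, 14 and 4 in the same order, 26 with the 75th percentile without OS low 3, 27 with probes averaged per transcript, 1 without the filter, 22 with normexp and 1 to 3 leaving out 1 array. In the low pool the 97 higher became 10 in a fit of only the groups compared, 19 with the 75th percentile, 153 without OS low 3, 199 with the deposited table without OS low 3, and 79 to 153 leaving out 1 array. The 28 lower became 0, 59, 30 and 5 in that order, 10 without the filter, 52 with normexp, 6 with the deposited table, 426 under the rule of the methods, 2 with the 75th percentile without OS low 3, and 7 to 559 leaving out 1 array (330 without OS low 1, 559 without OS low 2, 7 without control low 1 or 3, 18 without control low 2).

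With the replicate block, 88 and 8 members were higher and lower in total RNA, 98 and 27 in the low pool, and 1 and 1480 in the OS pools. The methods describe independent preparations, but the labels do not tie equal numbers to 1 preparation, and the deviations of same-numbered samples (correlations of -0.05 to 0.30) did not settle it. The replicate block moved none of these counts by over 1.5 times. The rule gave 691 members on the lncRNA scale, 1129 with 75th-percentile scaling, 624 at a threshold of 3, 1182 where every control untranslated value was 2 above every control high value and 2789 at a threshold of 1.5.

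Among named members, direction reversed for ENST00000448958.1 in the OS pools (-1.34 with the deposited table and -1.35 with the 75th percentile, each with and without OS low 3), ENST00000592377.1 in the OS pools (-1.18 with the deposited table, with and without OS low 3), ENST00000590721.1 in the low pool (0.36 for the mean of probes), SNHG9 (-0.68 and -0.73) and THUMPD3-AS1 (-0.59) in the low pool with the 75th percentile only where OS low 3 was kept, and ENST00000422207.1 in total RNA (-0.72 for the mean of probes, against 0.17 for 1 probe). For the named members in the OS pools, 1242 alternative values kept the call and its direction or stayed uncalled, 16 gained and 7 lost the call. Direction was not compared where neither the main nor the alternative value was called, here and in the list of reversals.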
